A study of Rattus rattus with 23 samples.

Results

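The nasal respiratory epithelium of rats 24 h after a hydrogen sulfide (H2S) exposure was compared with that at 6 h, to follow the tissue over the hours in which an injured lining starts to regenerate. All arrays whose title gives H2S and 24 h (4) were set against all whose title gives H2S and 6 h (3), which is 7 of the 23 arrays of the series. The 24 h group was animals 11, 12, 13 and 14, and the 6 h group animals 8, 9 and 10, with 1 array per animal. Every animal in both groups was a male Sprague-Dawley rat that breathed 200 ppm H2S nose-only for 3 h a day. The labels give 1 day of exposure for 6 of the 7 animals, while the treatment text of animal 14 names 5 days although its title says 24 h, and the labels do not settle which holds. No air array entered the comparison, and no air group of 6 h was among the samples, so a difference between 24 h and 6 h is not a difference from unexposed tissue. Ages are given as 60 days in the sample labels and as 10 weeks in the design text. Epithelium was cut by laser capture from the site of injury and regeneration, and its RNA was amplified in 2 rounds before hybridization to Affymetrix Rat230_2 arrays. The other groups were H2S at 3 h and 144 h and air at 24 h and 144 h, with 4 arrays each.

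H2S gas irritates the nasal lining and inhibits cytochrome c oxidase, the last enzyme of the mitochondrial respiratory chain. The respiratory epithelium of the nose is built of ciliated cells, mucus-secreting cells and basal cells, and basal cells are its main progenitors. After an injury, surviving cells first spread over the bare basement membrane, then divide, and then mature again into ciliated and secretory cells.

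Some features of the arrays bear on all results. RNA integrity numbers were 5.5, 4.2, 2.6 and 10 in the 24 h animals 11 to 14, against 5.8 and 6.4 in the 6 h animals 8 and 10, with no number given for animal 9. Array medians ran from 137 to 183 signal units over the 7 arrays, and the log2 median averaged 7.30 ± 0.179 at 24 h and 7.31 ± 0.208 at 6 h (SD, n = 4 and 3, exact permutation test, two-sided p = 0.971). The log2 ratio of the 3' to the 5' Gapdh probe set was 2.91 ± 0.991 at 24 h and 2.73 ± 1.33 at 6 h (exact permutation p = 0.8). For beta-actin it was 6.36 ± 0.857 and 5.77 ± 0.998 (exact permutation p = 0.457). The Gapdh ratio did not follow the RNA integrity number, as it was 2.8 in animal 14 and 1.57 in animal 11. With 4 against 3 animals an exact permutation test cannot give a two-sided p below 0.0571. The labels give each array an animal number of its own but no litter, and the hour of day at which tissue was taken is not given in the sources used here.

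Genes of mitosis and cytokinesis stood out: 34 of the 45 measured had higher signals in all 4 animals at 24 h than in any animal at 6 h (4.54% of all genes did), and 1 of them, Kifc1, passed the test over all probe sets. Mucin genes, axoneme genes and the multiciliated cell regulator Gmnc also had higher mean signals at 24 h, whereas interferon-induced, stromal and vessel genes mostly had lower ones, and none of these passed. Of 16481 probe sets tested with limma, 3 rose at 24 h (0.0182% of those tested, Benjamini-Hochberg adjusted p under 0.05) and 0 fell (0%). At an unadjusted p under 0.05 there were 1212 probe sets (7.35%). Calls depended on single animals. Without animal 14 there were 0 calls (743 at an unadjusted p under 0.05), without animal 10 or without animal 12 there was 1, and without animal 9 there were 14 higher and 1 lower. Without animal 13, the 24 h animal with the lowest RNA integrity number, there were 50 higher and 7 lower calls.

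**Figure D1:**
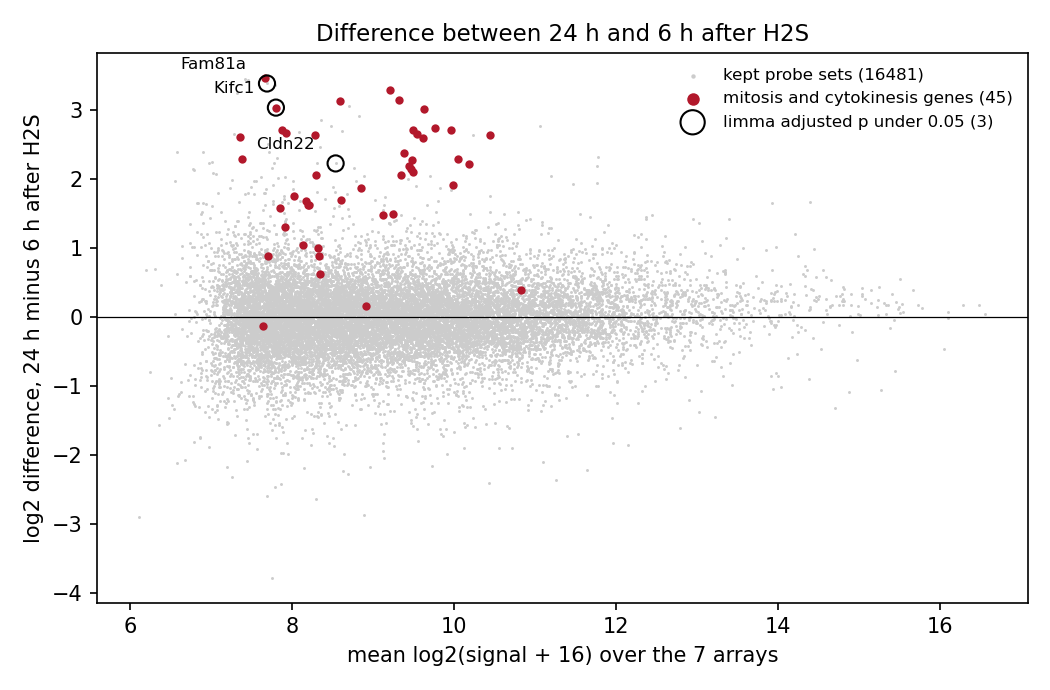
The difference between 24 h and 6 h after H2S (log2, vertical axis) is plotted against the mean log2(signal + 16) over the 7 arrays for the 16481 kept probe sets in grey. The 45 measured mitosis and cytokinesis genes (red) lie almost all above 0, and the 3 probe sets past the threshold (rings) are those of Fam81a, Kifc1 and Cldn22.

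Kifc1 encodes a minus-end-directed kinesin that focuses the poles of the mitotic spindle. Its signal (probe set 1376185_at) was 397, 527, 408 and 948 in the 24 h animals 11 to 14, against 44.2, 108 and 23.7 in the 6 h animals 8 to 10. The groups did not overlap, and the lowest 24 h animal was well above the highest 6 h animal. Kifc1 rose by 3.04 on the log2(signal + 16) scale (SE 0.423, limma adjusted p = 0.019), which is 8.25-fold on that scale. Its adjusted p exceeded 0.05 with no filter on low values (0.0704), with all 23 arrays fitted (0.102), with only the 7 arrays fitted (0.191), and without animal 8, 10, 12 or 14 (0.0733 to 0.0969). Over the whole series its mean level was 7.57 and 6.09 in air at 24 h and 144 h, and 7.19, 6.06, 9.10 and 7.21 at 3 h, 6 h, 24 h and 144 h after H2S, so 24 h was the highest of the 6 group means.

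Cldn22 encodes a member of the claudin family of tight junction proteins. Its signal (1397736_at) was 626, 973, 494 and 812 in the 24 h animals, against 112, 162 and 142 in the 6 h animals. No 24 h animal came near the 6 h range, and the gene rose by 2.23 on the log2 scale (SE 0.326, adjusted p = 0.0233). Here the 6 h mean, 7.26, was the lowest of the 6 groups, while the 3 h and 144 h means were 9.0 and 9.64. In air the means were 7.77 at 24 h and 8.93 at 144 h, and the air animals at 24 h, from 7.0 to 8.64, overlapped the 6 h animals, from 7.0 to 7.47. The call was lost with no filter (adjusted p = 0.1), with arrays centred on their medians (0.0604), with all 23 arrays fitted (0.161), with only the 7 arrays fitted (0.178), and without animal 8, 10, 11, 12 or 14 (0.0683 to 0.121). Cldn22 was not among the genes of any list described below.

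The largest of the 3 called differences belonged to a probe set of Fam81a (1373218_at), which does not represent its gene here and was named after its values were seen. Its signal was 1023, 210, 659 and 625 at 24 h, against 43.3, 16.9 and 64.8 at 6 h, without overlap. It rose by 3.39 on the log2 scale (SE 0.44, adjusted p = 0.0168), a size that depends on the 16 added before the logarithm, because the 6 h signals are low: with 1 added it was 3.87 and with 64 added 2.58. The 2 other Fam81a probe sets, both without overlap and higher at 24 h, differed by 1.76 and 1.98 (adjusted p = 0.404 and 0.232), and with the mean of all its probe sets Fam81a gave 2.37 (adjusted p = 0.0698). The call was also lost with no filter (0.0614), with only the 7 arrays fitted (0.205) and without animal 14 (0.0733). As with Cldn22, the low group was 6 h: the mean level was 8.70 at 3 h, 5.75 at 6 h and 9.14 at 24 h, and between 8.70 and 9.43 in the remaining groups.

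Mitosis and cytokinesis genes had the highest median difference among the 35 lists examined. Of 54 listed genes 48 were on the array and 45 were measured, that is, passed the filter on low values. Of the 45, 44 had a positive difference, and 34 had no overlap between the groups and were higher at 24 h, while 0 had no overlap and were lower. Over all 9992 genes the same counts were 53.1% positive, 4.54% without overlap and higher, and 2.91% without overlap and lower. The median difference of the list was 2.15, beside 0.03 over all genes. With no filter, 47 of the 48 genes on the array were positive (52.3% of all genes), 35 were higher without overlap (3.92%), 0 were lower without overlap (2.81%), and the median was 2.13. Some members can pass the filter through their 24 h signals alone, so for this list the counts over measured members and over all on the array are given together. For most other lists only the measured members are counted. Kifc1 was the 1 member past the threshold. At an unadjusted p under 0.05, 39 of the 45 were higher and 0 lower, beside 4.87% and 2.94% of all genes. The tissue is a mixture of cells, so more dividing cells and more of these transcripts per cell cannot be told apart.

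Several members drive the separation of daughter cells. Racgap1, a subunit of the centralspindlin complex, had signals of 2845, 3875, 1341 and 5591 at 24 h, against 426, 715 and 341 at 6 h. Its partner Kif23, a kinesin, had 1606, 2434, 1036 and 4553 at 24 h, against 332, 276 and 748 at 6 h. Ect2, the exchange factor that both recruit to the cell equator to activate RhoA, had 1634, 1951, 690 and 2658 at 24 h, against 95.1, 194 and 159 at 6 h. None of the 3 genes overlapped between the groups, and in each of them animal 14 was highest and animal 13 lowest of the 24 h animals. Their differences were 2.64 (SE 0.463), 2.29 (SE 0.456) and 3.30 (SE 0.591) on the log2 scale, with limma adjusted p of 0.105, 0.106 and 0.105, so none passed.

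Genes of mitotic entry and of chromosome handling had similar values by animal. Cdk1, the kinase that starts mitosis, had signals of 2875, 2549, 958 and 3434 at 24 h, against 286, 529 and 220 at 6 h. Top2a, the topoisomerase that untangles replicated DNA, had 1307, 2202, 800 and 3400 at 24 h, against 206, 316 and 281 at 6 h. Ncaph, a subunit of condensin, had 1009, 1470, 755 and 2762 at 24 h, against 226, 354 and 318 at 6 h. All 3 were separated between the groups, with animal 13 nearest to the 6 h animals. Cdkn3, a phosphatase acting on cyclin-dependent kinases, had 1527, 1578, 927 and 3024 at 24 h, against 177, 546 and 146 at 6 h, again without overlap. The differences were 2.72 for Cdk1, 2.60 for Top2a, 2.11 for Ncaph and 2.65 for Cdkn3 (limma adjusted p 0.105 to 0.106).

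The proliferation marker Mki67, by contrast, overlapped. Its signals were 2504, 2289, 944 and 4548 at 24 h, against 268, 981 and 378 at 6 h, with animal 13 just below animal 9. The difference was 2.22 (SE 0.632, adjusted p = 0.379). The smallest differences in the list, named after their values were seen, were those of 3 genes: Smc4, a condensin subunit, at 0.16, Aurkb, a mitotic kinase, at 0.39, and Mybl2, a transcription factor of the cell cycle, at -0.13, each overlapping between the groups (adjusted p 0.941 to 0.966).

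**Figure D2:**
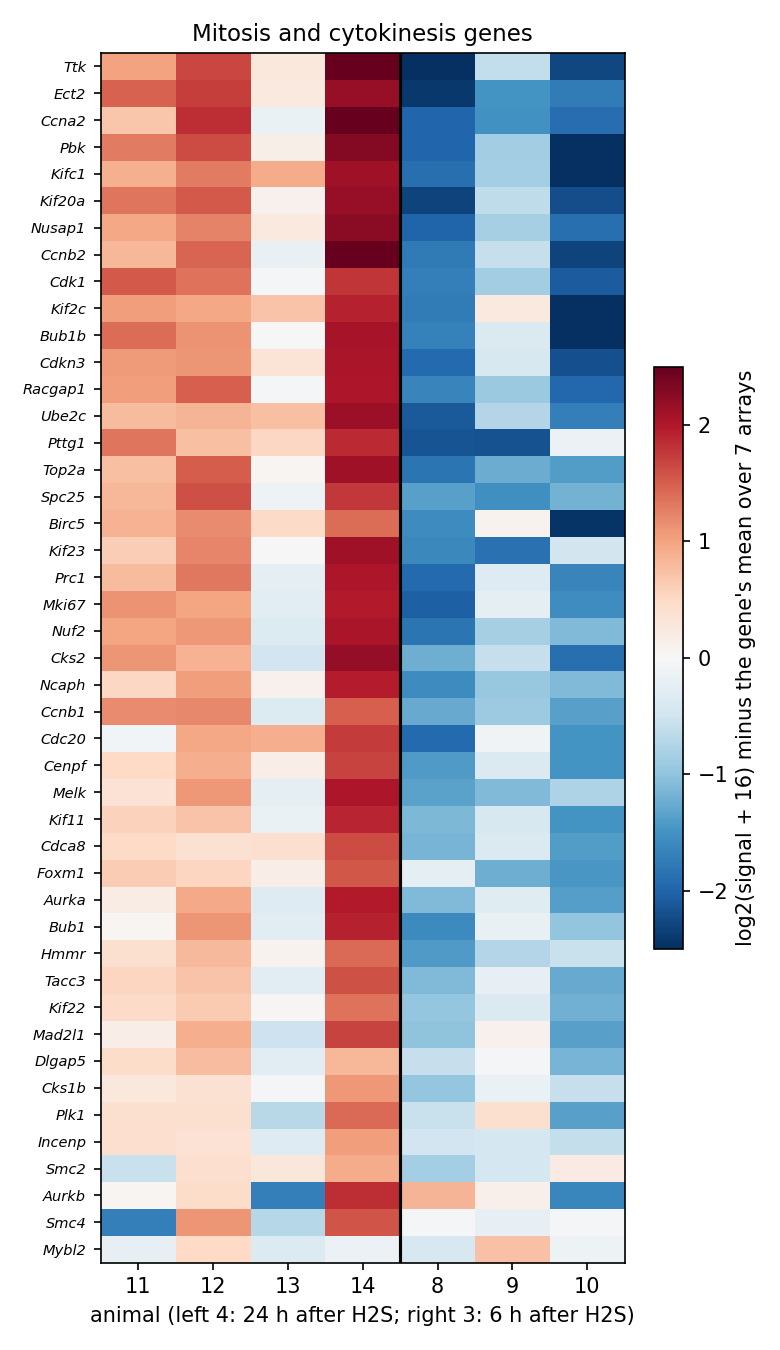
Each row is 1 of the 45 measured mitosis and cytokinesis genes, ordered by the difference between 24 h and 6 h, and each column is 1 animal, the 4 at 24 h left of the line and the 3 at 6 h right of it. The colour is log2(signal + 16) minus the gene's mean over the 7 arrays, and values beyond the ends of the scale take the end colour. Animal 14 is the darkest red and animal 13 the palest of the 24 h animals.

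The level of a list, the mean log2 value of its measured members minus that of all genes on the same array, summarises this by animal. For mitosis and cytokinesis it was -0.13, 0.30, -0.80 and 1.05 in the 24 h animals 11 to 14, against -2.13, -1.37 and -2.12 in the 6 h animals 8 to 10. Every 24 h animal lay above every 6 h animal. The 24 h animals also lay above all 19 arrays of the other groups, whose highest level was -0.99. Group means were -1.37 and -1.82 in air at 24 h and 144 h, and -1.66, -1.87, 0.11 and -1.45 at 3 h, 6 h, 24 h and 144 h after H2S. Among the 24 h animals (SD 0.775), animal 14 had the highest level and RNA integrity number, and animal 13 the lowest of both. Animals 11 and 12 went the other way, as animal 11, with a number of 5.5, lay below animal 12, with 4.2. Animal 14 is also the one whose treatment text names 5 days. The part of RNA quality or treatment in the spread was not tested. With that number as a covariate, on the arrays that have one, the median of the list was 2.31. That fit leaves out animal 9, the 6 h animal with the highest level, so the 2.31 reflects the change of arrays as well as the covariate. Without animal 14 the median of the list was 1.82, and without animal 13 it was 2.47. Without animal 14, 34 of 45 genes were higher without overlap, beside 5.49% of all genes. Leaving out an animal cannot make separated groups overlap, so this count could hardly fall and is no test of animal 14.

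**Figure D3:**
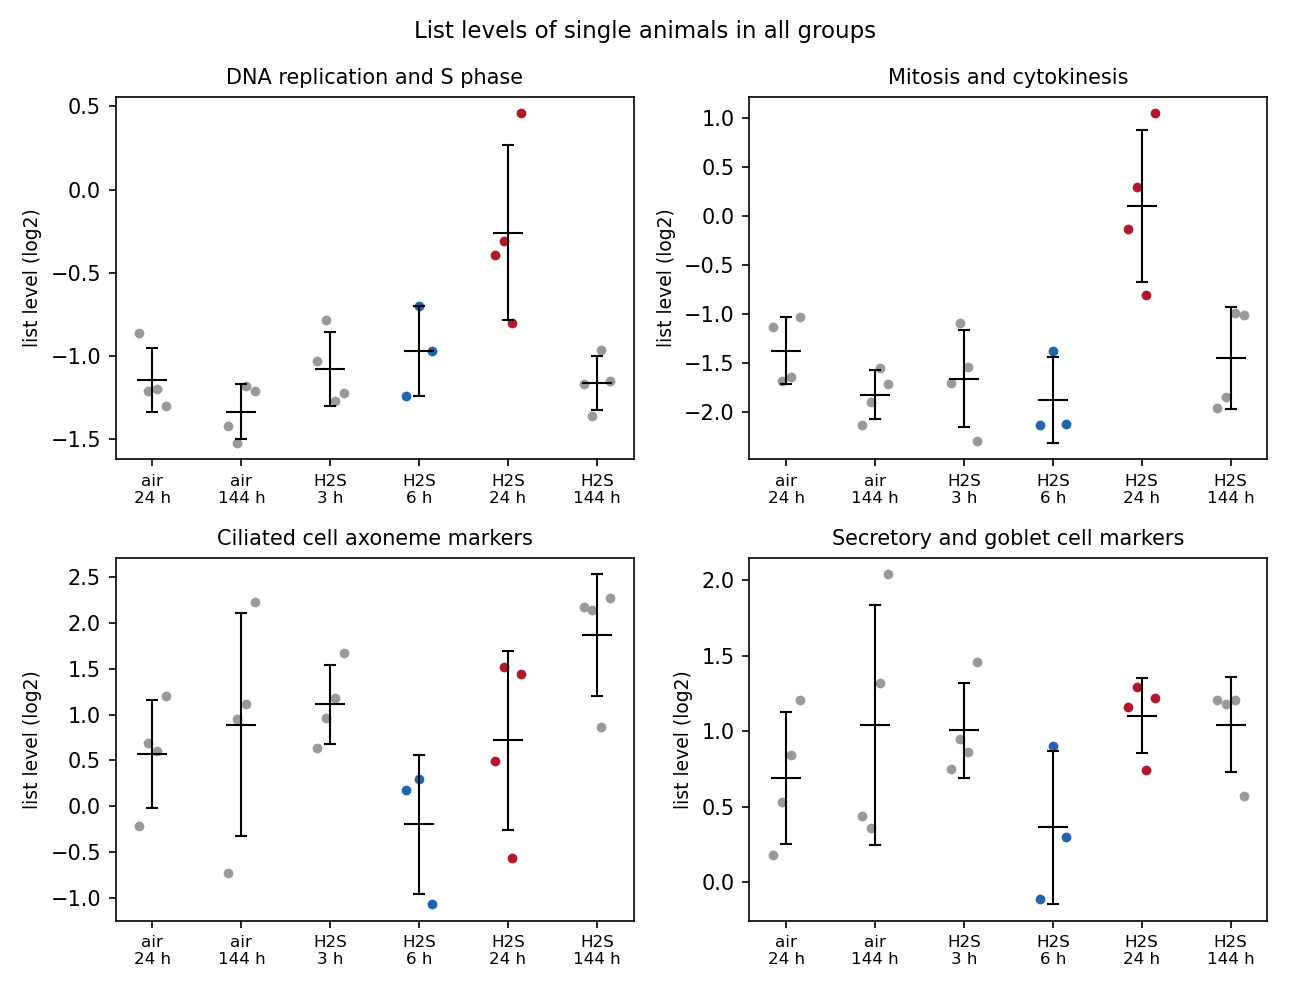
List levels (log2, relative to all genes on the array) are shown for each animal in 6 groups, air first and then the times after H2S in order, with the 24 h animals in red and the 6 h animals in blue. Horizontal marks and bars are the group mean and SD, and in the mitosis panel all 4 animals at 24 h stand above the other 19 arrays.

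DNA replication genes had smaller differences. Of 34 measured genes of replication and S phase 32 had a positive difference (53.1% of all genes) and 12 were higher without overlap (4.54% of all genes), with a median of 0.80. By limma 0 of the 34 passed the threshold, and 13 had an unadjusted p under 0.05, all higher at 24 h (4.87% of all genes). Tk1, thymidine kinase of the salvage pathway, had signals of 1170, 1186, 1101 and 2203 at 24 h, against 582, 456 and 374 at 6 h. Mcm10, a replication initiation factor, had 290, 237, 186 and 355 at 24 h, against 8.85, 99.5 and 102 at 6 h. Rrm1, the large subunit of ribonucleotide reductase, had 2077, 2383, 1510 and 4569 at 24 h, against 592, 1155 and 875 at 6 h. All 3 were separated between the groups, with differences of 1.52 (SE 0.282), 1.99 (SE 0.486) and 1.5 (SE 0.38) and limma adjusted p of 0.105, 0.232 and 0.254.

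The level of the replication list was -0.39, -0.31, -0.80 and 0.46 in the 24 h animals, against -1.24, -0.70 and -0.97 in the 6 h animals. The groups overlapped, since animal 13 lay below animal 9. Of the 19 arrays of other groups 2 were above the lowest 24 h animal. Without animal 14 the list's median was 0.50. Members of the MCM helicase with small differences were Mcm3 at 0.34, Mcm4 at 0.46 and Mcm7 at 0.47, while Mcm6 stood at 1.22, and all 4 overlapped between the groups (named after their values were seen, adjusted p 0.623 to 0.907).

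Genes of the G1 phase were split. Of 15 measured genes 7 were positive (53.1% of all genes), 4 were higher without overlap (4.54% of all genes), and the median was -0.04. The 4 were Cdk4, a G1 kinase, Cdkn2c, an inhibitor of Cdk4, and the E cyclins Ccne1 and Ccne2. Cdk4 had signals of 1954, 1930, 1892 and 3240 at 24 h, against 1209, 838 and 1254 at 6 h, a difference of 1.01 (SE 0.297, adjusted p = 0.406). Ccne2 had 407, 593, 320 and 2180 at 24 h, against 172, 283 and 177 at 6 h, a difference of 1.57 (adjusted p = 0.466). In both genes animal 14 stood far above the other 24 h animals. The D cyclins Ccnd1, Ccnd2 and Ccnd3, named after their values were seen, differed by -0.13, -0.04 and -0.06 (adjusted p 0.958 to 0.993). Cdkn1a, which encodes the cell cycle inhibitor p21, had 478, 1479, 578 and 1223 at 24 h, against 1168, 343 and 1460 at 6 h, a difference of 0.00 (SE 0.518) whose sign depended on the setting.

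Further genes had low p-values and no overlap but were in no list. Iqgap3, a scaffold protein of proliferating cells, had signals of 484, 488, 238 and 849 at 24 h, against 34.1, 33.5 and 20.3 at 6 h, a difference of 3.44 (SE 0.619, adjusted p = 0.105) that was 3.99 with 1 added before the logarithm and 2.53 with 64 added. Cdca3, which promotes mitotic entry, had 1952, 3056, 1017 and 4092 at 24 h, against 183, 717 and 259 at 6 h, a difference of 2.72 (adjusted p = 0.105). Diaph3, a formin that assembles actin filaments, had 357, 605, 338 and 490 at 24 h, against 126, 119 and 128 at 6 h, a difference of 1.68 (adjusted p = 0.105). The Diaph3 signals at 6 h were almost equal, and all 4 animals at 24 h exceeded them by a wide margin. Dctpp1, a pyrophosphatase that cleans the nucleotide pool, had 1426, 1392, 1254 and 2068 at 24 h, against 252, 633 and 272 at 6 h, a difference of 2.05 (adjusted p = 0.105). Rnase1l2, a gene of the ribonuclease A family, had 867, 857, 491 and 403 at 24 h, against 109, 250 and 135 at 6 h, a difference of 1.89 (adjusted p = 0.105), and is the 1 gene among these with its highest values in animals 11 and 12.

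Markers of the mature cell types came next. All 19 measured genes of the ciliary axoneme had a positive difference, with a median of 0.99, but 1 of the 19 was separated between the groups (4.54% of all genes were, and higher). By limma 0 passed the threshold, and 3 had an unadjusted p under 0.05 (4.87% of all genes, higher). The separated gene was Tubb4b, a tubulin of cilia and other microtubules, with signals of 14120, 15620, 8827 and 17452 at 24 h, against 8199, 6358 and 5463 at 6 h (difference 1.04, SE 0.319, adjusted p = 0.417). Tekt4, a tektin of axonemal microtubules, had 845, 1275, 526 and 1657 at 24 h, against 588, 669 and 148 at 6 h (difference 1.30, adjusted p = 0.573). Dnah1, an axonemal dynein heavy chain, had 1820, 2110, 1288 and 3654 at 24 h, against 1216, 1642 and 349 at 6 h (difference 1.20, adjusted p = 0.643). In Tekt4 and Dnah1 animal 10 was far below the other 6 h animals, and animal 13 fell within the 6 h range. The list level was 0.49, 1.52, -0.57 and 1.44 at 24 h, against 0.18, 0.30 and -1.07 at 6 h. Of the 19 arrays of other groups 17 were above the lowest 24 h animal, and the group means were 1.11, -0.20, 0.72 and 1.87 at 3 h, 6 h, 24 h and 144 h after H2S, so 24 h was below 3 h and 144 h. The median difference was 0.54 without animal 10 and 1.39 without animal 13.

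Regulators of the multiciliated fate gave a sharper picture for 1 gene. Gmnc encodes GEMC1, which switches precursor cells to the multiciliated fate. Its signals were 478, 976, 124 and 1903 at 24 h, against 35.3, 111 and 110 at 6 h. Animal 13 was only just above the 6 h animals, and the other 24 h animals were far above. The difference was 2.69 (SE 0.638, adjusted p = 0.204), and the mean level at 6 h, 6.54, was the lowest of the 6 groups (7.48 at 3 h, 9.15 at 144 h, 8.22 and 8.17 in air at 24 h and 144 h). Foxj1, the transcription factor of motile cilia, had 921, 1149, 601 and 1217 at 24 h, against 465, 732 and 278 at 6 h, overlapping, with a difference of 1.01 (adjusted p = 0.69). Of the 24 measured genes of multiciliated fate and centrioles 21 were positive, 3 were higher without overlap (4.54% of all genes), and the median was 0.37 (0.19 without animal 12 and 0.67 without animal 13).

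Some mucus-cell genes had large differences with a wide spread at 6 h. Muc5ac, a gel-forming mucin of goblet cells, had signals of 566, 2231, 439 and 564 at 24 h, against 4.02, 195 and 265 at 6 h. Muc5b, the other main airway mucin, had 8696, 9357, 2382 and 12154 at 24 h, against 380, 6404 and 1051 at 6 h. Agr2, a disulfide isomerase needed for mucin folding, had 5839, 6177, 1500 and 11535 at 24 h, against 980, 2871 and 772 at 6 h. Muc5ac was separated between the groups, while in Muc5b and Agr2 animal 13 lay below animal 9. Bpifb1, a secreted protein of airway mucous cells, had 1199, 1272, 425 and 1994 at 24 h, against 15.2, 1394 and 50.6 at 6 h, where animals 11, 12 and 13 all lay below animal 9. The differences were 2.86, 2.32, 1.93 and 2.92 for Muc5ac, Muc5b, Agr2 and Bpifb1 (SE 0.872, 0.825, 0.57 and 0.936, limma adjusted p 0.417, 0.53, 0.406 and 0.451). For all 4 genes the 6 h mean was the lowest of the 6 groups, as the 3 h means of 9.21, 12.97, 11.55 and 10.88 exceeded the 6 h means of 6.73, 10.45, 10.36 and 7.16. Of 18 measured secretory genes 14 were positive, with a median of 0.52, and the list level was 1.16, 1.29, 0.74 and 1.22 at 24 h, against -0.11, 0.90 and 0.30 at 6 h. Animal 13 lay below animal 9, and 12 of the 19 arrays of other groups were above animal 13.

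Basal cell genes were spread around a small positive value. Of 16 measured genes 11 were positive, and the median was 0.39. Without overlap 1 of the 16, Lamb3, was higher and 1, Dst, was lower, beside 4.54% and 2.91% of all genes. Dst differed by -0.40 (adjusted p = 0.764), while its other probe set overlapped, with a difference of 0.54 (adjusted p = 0.855). Lamb3, a chain of laminin in the basement membrane, had signals of 2283, 2090, 2601 and 3603 at 24 h, against 908, 1050 and 1246 at 6 h (difference 1.28, SE 0.328, adjusted p = 0.26). The basal keratins varied between animals within both groups: Krt5 had 727, 1061, 388 and 3738 at 24 h, against 626, 391 and 1091 at 6 h (difference 0.67, SE 0.99, adjusted p = 0.911). Krt14 had 1203, 2772, 870 and 3599 at 24 h, against 1508, 1072 and 2580 at 6 h (difference 0.16, adjusted p = 0.979). Krt17, a keratin of wounded epithelia, had 485, 327, 372 and 1460 at 24 h, against 732, 398 and 1098 at 6 h (difference -0.32, adjusted p = 0.962). In these 3 keratins the groups overlapped widely.

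Enzymes of sulfide handling were of interest because sulfide was the exposure. Tst, a mitochondrial sulfurtransferase of sulfide disposal, had signals of 1676, 1899, 1280 and 5575 at 24 h, against 880, 948 and 496 at 6 h, separated (difference 1.53, SE 0.427, adjusted p = 0.348). Selenbp1, a methanethiol oxidase that releases sulfide, had 8677, 9076, 3393 and 16356 at 24 h, against 2888, 3545 and 2537 at 6 h, with animal 13 within the 6 h range (difference 1.45, adjusted p = 0.414). Sqor, which oxidises sulfide in mitochondria, had 1303, 1847, 1057 and 1914 at 24 h, against 1055, 1015 and 1062 at 6 h, overlapping at its lower end, with the 6 h values almost equal (difference 0.50, adjusted p = 0.746). Of the 7 measured genes 6 were positive, with a median of 0.77 (0.48 without animal 9). Tst was the 1 of the 7 that was higher without overlap, beside 4.54% of all genes. The list level ran from 0.10 to 0.98 at 24 h, against -0.23 to -0.18 at 6 h, without overlap. Subunits and assembly factors of cytochrome c oxidase, the enzyme that H2S inhibits, were positive in 15 of 16, higher without overlap in 5 (4.54% of all genes), with a median of 0.35. The oxidase level ran from 1.67 to 1.93 at 24 h, against 1.43 to 1.44 at 6 h, without overlap. In air at 24 h the sulfide and oxidase levels ran from -0.58 to 0.73 and from 1.44 to 1.87. Cox6a1 had 2933, 2435, 3047 and 6107 at 24 h, against 1686, 2269 and 1530 at 6 h (difference 0.91, adjusted p = 0.601). The other respiratory complexes gave 31 positive of 33 and a median of 0.36, and proteasome subunits 29 of 33 with 7 higher without overlap (again beside 4.54%) and a median of 0.32. By limma 0 genes of these 4 groups passed the threshold, and 3, 2, 4 and 3 of them, in the order given, had an unadjusted p under 0.05 and were higher, beside 4.87% of all genes.

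Among enzymes that metabolise inhaled chemicals, 21 of 26 were positive, with a median of 0.43. Without overlap 3 of the 26, Cyp2a3, Aldh1a1 and Tst, were higher, beside 4.54% of all genes. The lowest of the 5 negative ones was Cyp4a8 at -1.18 (adjusted p = 0.732). Cyp2a3, a cytochrome P450 abundant in rat nasal tissue, had signals of 12816, 5302, 8558 and 9513 at 24 h, against 2754, 3033 and 3540 at 6 h. The groups were separated and the 6 h values close together (difference 1.48, SE 0.396, adjusted p = 0.289). Aldh1a1, a retinaldehyde dehydrogenase, had 25376, 25703, 13789 and 16626 at 24 h, against 10936, 6944 and 13318 at 6 h, barely separated (difference 0.97, adjusted p = 0.433). Ion and water transport genes were positive in 12 of 16 with a median of 0.69, and Scnn1g, a subunit of the epithelial sodium channel, had 322, 534, 354 and 301 at 24 h, against 83.4, 177 and 261 at 6 h (difference 1.14, adjusted p = 0.433). With no filter on low values, 13 of the 21 transport genes on the array were positive and the median was 0.26. In lipid synthesis, 15 of 19 genes were positive with a median of 0.30. Their list level ran from 0.29 to 0.76 at 24 h, against -0.02 to 0.16 at 6 h, without overlap. Fads2, a fatty acid desaturase, had 228, 184, 211 and 152 at 24 h, against 122, 16.6 and 7.66 at 6 h (difference 2.13, adjusted p = 0.259), a size that rests on very low signals at 6 h.

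**Figure D4:**
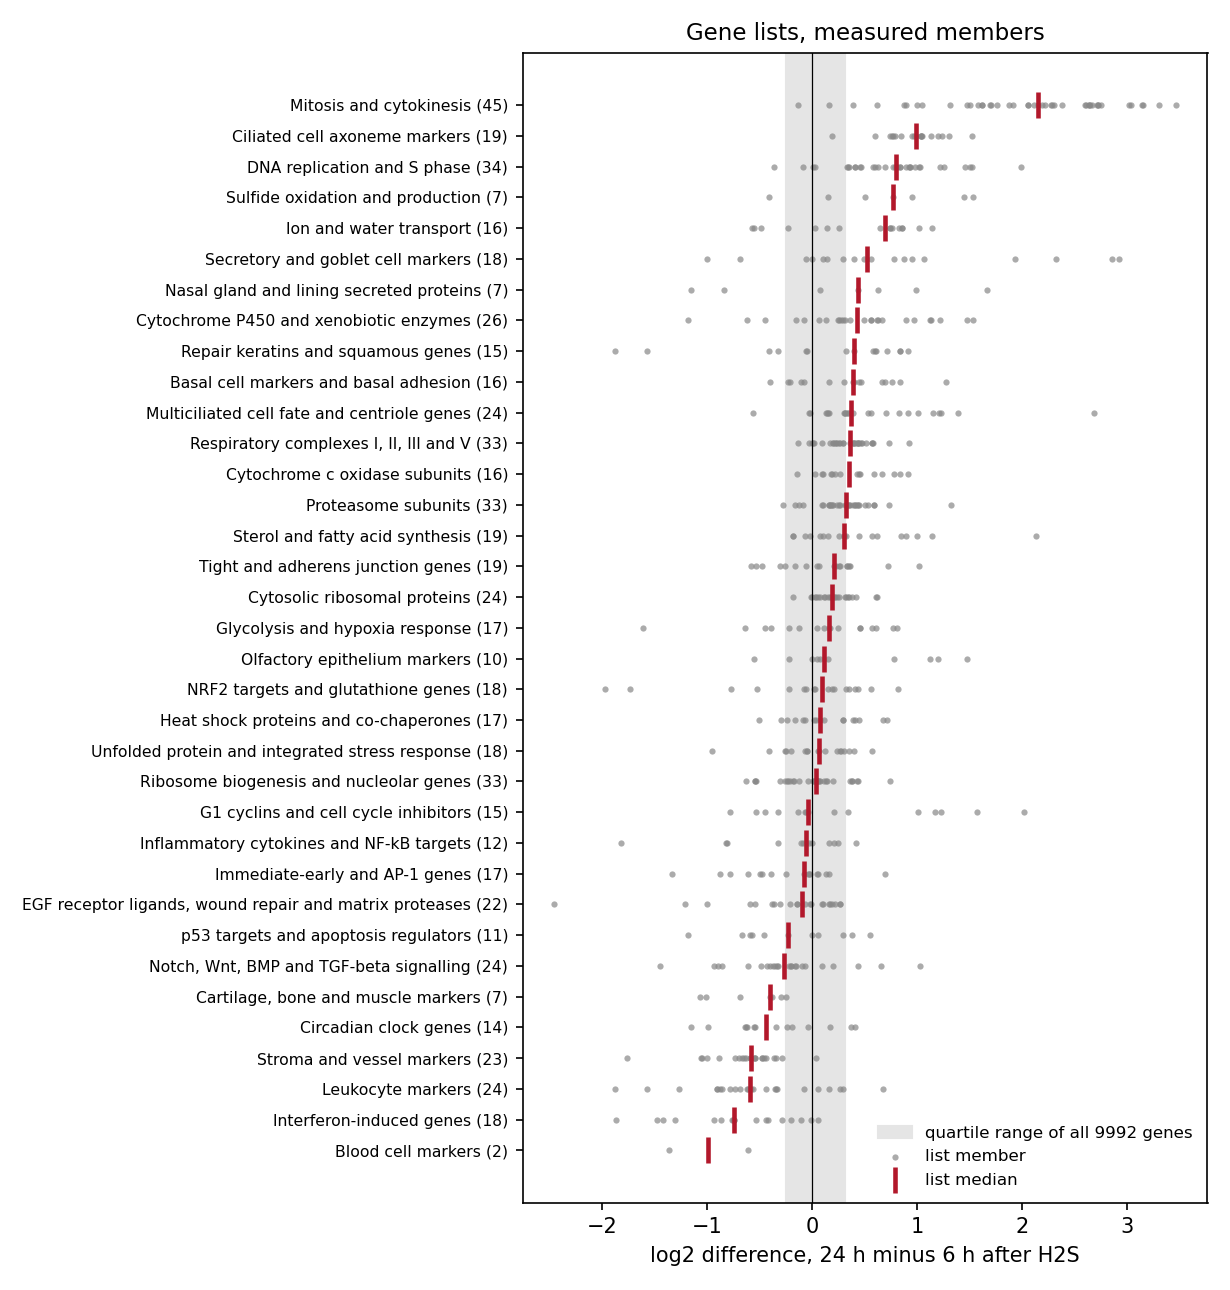
Each grey point is the difference between 24 h and 6 h (log2) of 1 measured list member, red bars are list medians, and the shaded band spans the quartiles of all 9992 genes. The number of measured members stands beside each list name, and the mitosis list has the highest median (2.15).

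In the other direction, limma called 0 genes (294 at an unadjusted p under 0.05), and the named genes are those with the smallest p among genes without overlap. Ccn2 encodes a matricellular protein induced by TGF-beta and YAP signalling. It had signals of 6063, 4504, 7337 and 7387 at 24 h, against 18624, 15421 and 16858 at 6 h. The 2 groups were tight and far apart, with a difference of -1.45 (SE 0.338, adjusted p = 0.202). Errfi1, a feedback inhibitor of the EGF receptor, had 1010, 1294, 1540 and 1149 at 24 h, against 3433, 2019 and 3261 at 6 h (difference -1.19, adjusted p = 0.285). Maff, a small Maf transcription factor induced by stress, had 95.2, 94.5, 85.1 and 118 at 24 h, against 212, 297 and 308 at 6 h (difference -1.33, adjusted p = 0.26). Ltbp1, which holds latent TGF-beta in the matrix, had 451, 497, 538 and 504 at 24 h, against 1331, 1374 and 1475 at 6 h (difference -1.46, adjusted p = 0.261). Ptpn12, a tyrosine phosphatase of cell adhesion and migration, had 1456, 1712, 1530 and 1506 at 24 h, against 3222, 3187 and 3510 at 6 h (difference -1.09, adjusted p = 0.237). In these 5 genes animals 13 and 14 did not stand apart from animals 11 and 12.

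Other genes of that ranking were less tight or close to the lower end of the signal range. Tmem178a, which encodes a transmembrane protein, had 217, 167, 196 and 172 at 24 h, against 479, 975 and 739 at 6 h (difference -1.82, SE 0.349, adjusted p = 0.105), and its mean level at 144 h, 7.60, was close to that at 24 h, 7.67. Kctd12, an auxiliary subunit of GABA-B receptors, had 4403, 4210, 9547 and 2036 at 24 h, against 16959, 10267 and 13725 at 6 h, with animal 13 nearest to the 6 h animals (difference -1.61, adjusted p = 0.242). Camp, the cathelicidin peptide of neutrophils and epithelia, had 38.5, 13.2, 3.77 and 7.24 at 24 h, against 304, 186 and 143 at 6 h (difference -2.90, adjusted p = 0.139). The Camp difference was -4.05 with 1 added before the logarithm and -1.77 with 64 added, because its 24 h signals are near the bottom of the range. Erg, an endothelial transcription factor, had 15.1, 63.3, 28.6 and 69.6 at 24 h, against 181, 261 and 213 at 6 h (difference -2.07, or -2.5 with 1 added and -1.41 with 64 added, adjusted p = 0.139). Heg1, a receptor of endothelial and cardiac development, had 618, 1106, 867 and 483 at 24 h, against 1564, 1754 and 2090 at 6 h (difference -1.27, adjusted p = 0.252). Fgl2, a fibrinogen-like protein of leukocytes and endothelium, had 602, 668, 1260 and 978 at 24 h, against 4449, 3228 and 2243 at 6 h (difference -1.90, adjusted p = 0.289). Nacad, Cdyl2 and Igsf6, the remaining genes of the ranking, differed by -2.11, -1.24 and -1.04 (adjusted p 0.211, 0.237 and 0.289). The Nacad difference was -2.59 with 1 added and -1.42 with 64 added, and the second Cdyl2 probe set overlapped between the groups with a difference of -0.40 (adjusted p = 0.859).

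**Figure D5:**
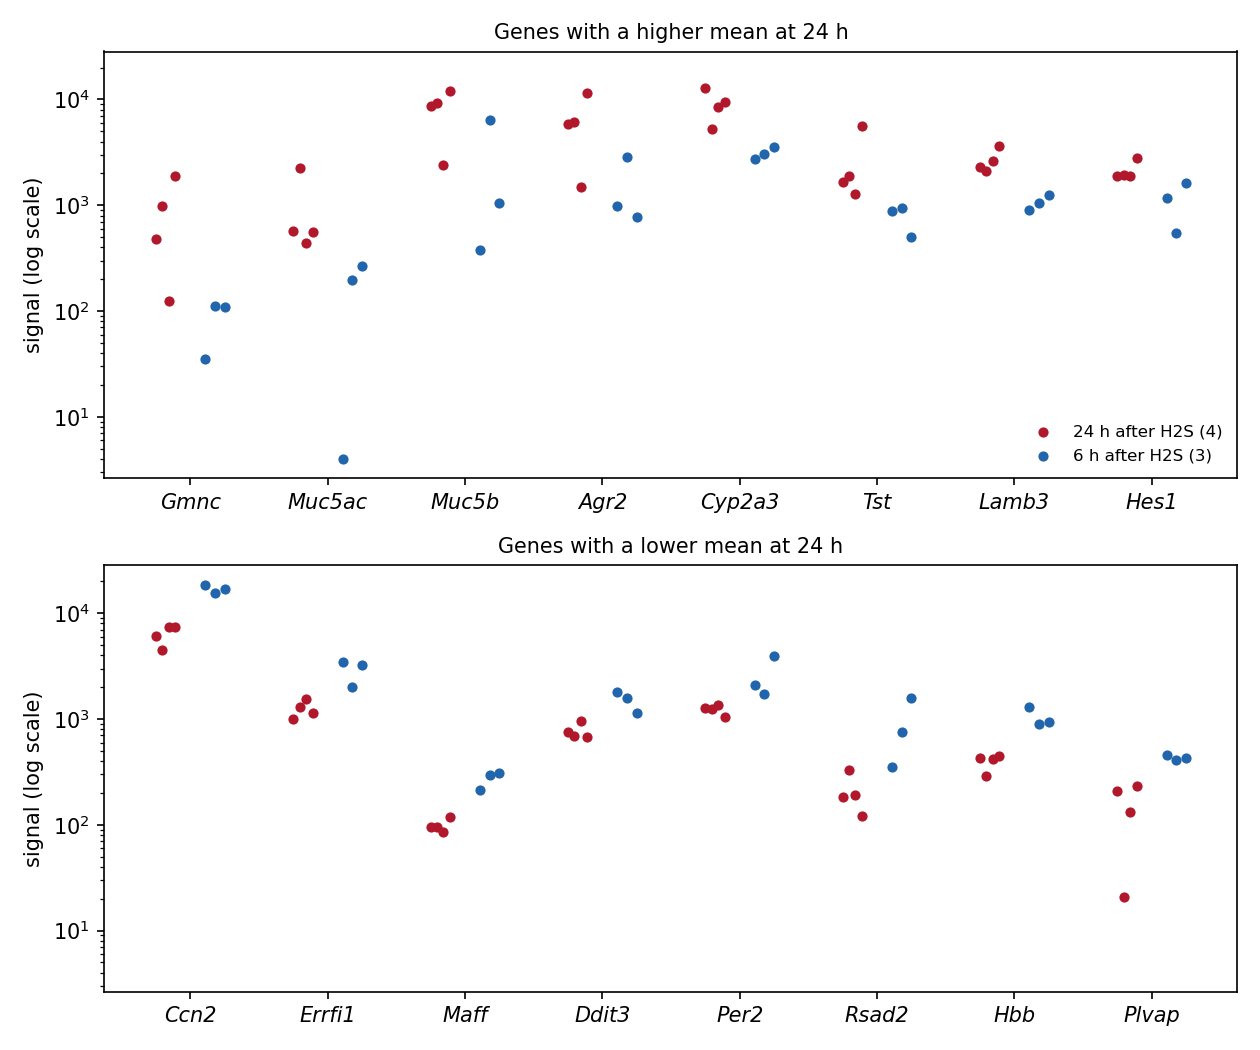
Signals of single animals are shown on a log axis for 8 genes with a higher mean at 24 h (top) and 8 with a lower mean (bottom), 24 h animals in red left of 6 h animals in blue. Ccn2 and Cyp2a3 are separated with close values at 6 h, while Muc5b and Agr2 overlap.

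Among stress and repair genes limma called 0. Of 17 measured immediate-early genes 5 were positive, with a median of -0.08, and the list level was -0.37, -0.40, -0.11 and -0.37 in the 24 h animals, against -0.06, 0.07 and -0.07 in the 6 h animals, without overlap. Atf3, a stress-induced transcription factor, had 329, 354, 262 and 473 at 24 h, against 335, 288 and 328 at 6 h (difference 0.13, adjusted p = 0.965). Heat shock genes (11 of 17 positive, median 0.08), NRF2 targets (11 of 18, median 0.09) and unfolded protein response genes (10 of 18, median 0.07) had medians near the 0.03 of all genes. The p53 and apoptosis genes (5 of 11 positive) had a median of -0.23, close to the lower quartile of all genes, -0.25. Their level was -0.13, 0.20, -0.03 and 0.07 in the 24 h animals, against 0.23, 0.36 and 0.26 in the 6 h animals, without overlap. Ddit3, the transcription factor CHOP of the integrated stress response, was the 1 gene of these 4 lists that was lower without overlap, beside 2.91% of all genes. It had signals of 746, 696, 952 and 670 at 24 h, against 1813, 1565 and 1138 at 6 h (difference -0.95, adjusted p = 0.53). Abcc4, of the NRF2 list, was the 1 gene of the 4 lists that was higher without overlap, beside 4.54% of all genes (difference 0.82, adjusted p = 0.605). Hmox1, haem oxygenase 1, had 330, 459, 256 and 483 at 24 h, against 715, 294 and 1259 at 6 h (difference -0.77, adjusted p = 0.803), and Slc7a11, the cystine transporter, had 17.1, 183, 217 and 169 at 24 h, against 660, 193 and 921 at 6 h (difference -1.97, adjusted p = 0.461). In both, animal 9 at 6 h was within the 24 h range. Wound-repair ligands and matrix proteases were positive in 8 of 22 with a median of -0.10, and Egfr, the EGF receptor, differed by 0.22 (SE 0.407, adjusted p = 0.929). Ndrg1, a hypoxia-responsive gene of differentiation, was the 1 of 17 glycolysis and hypoxia genes that was lower without overlap, beside 2.91% of all genes. It had 685, 1157, 1397 and 908 at 24 h, against 6085, 2146 and 2243 at 6 h (difference -1.61, adjusted p = 0.343). Slc2a1 was the 1 of the 17 that was higher without overlap, beside 4.54% (difference 0.46, adjusted p = 0.785).

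Notch, Wnt, BMP and TGF-beta signalling genes had 5 positive of 24 and a median of -0.27 (-0.10 without animal 10), with 4 lower without overlap (2.91% of all genes) and 1 of 24 higher, a share close to the 4.54% of all genes. The higher one was Hes1, a target of Notch, with signals of 1871, 1929, 1893 and 2790 at 24 h, against 1169, 553 and 1609 at 6 h (difference 1.03, SE 0.34, adjusted p = 0.466). The Notch ligand Dll4 had lower values, with 137, 106, 205 and 141 at 24 h, against 272, 363 and 206 at 6 h, where animals 13 and 10 were almost equal (difference -0.86, adjusted p = 0.68). Also lower without overlap were Ccn2, Nrarp at -0.61 and Notch1 at -0.43. Hey1 overlapped, at -0.37 (named after their values were seen, adjusted p 0.729 to 0.882 for Nrarp, Notch1 and Hey1). Hes1 thus does not stand for the Notch genes of the list. Circadian clock genes had 3 positive of 14 and a median of -0.44 (-0.26 without animal 12). Per2, a repressor of the clock, had 1265, 1242, 1348 and 1051 at 24 h, against 2097, 1740 and 3959 at 6 h, separated (difference -0.99, SE 0.354, adjusted p = 0.53). The clock list level was -0.13, -0.16, -0.06 and -0.02 at 24 h, against 0.36, 0.22 and 0.33 at 6 h, without overlap. The part of the hour of sampling in any difference between 24 h and 6 h was not tested.

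Interferon-induced genes were negative in 17 of 18, with a median of -0.74 and 3 lower without overlap (2.91% of all genes). Rsad2, an antiviral enzyme, had signals of 183, 332, 190 and 120 at 24 h, against 349, 746 and 1588 at 6 h (difference -1.87, SE 0.529, adjusted p = 0.377). Oas1a, an oligoadenylate synthetase, had 81.8, 48.3, 116 and 54.9 at 24 h, against 224, 290 and 181 at 6 h (difference -1.48, adjusted p = 0.248). Both were separated between the groups. The list level was -1.09, -0.57, -0.67 and -1.03 at 24 h, against -0.82, 0.17 and 0.38 at 6 h, so animal 8 lay among the 24 h animals. The median was -0.31 without animal 9, -0.46 without animal 10 and -0.97 without animal 8. Il1b, an inflammatory cytokine, had 217, 213, 304 and 268 at 24 h, against 418, 576 and 373 at 6 h, without overlap (difference -0.81, adjusted p = 0.706).

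Most measured markers of stroma, vessels, leukocytes and blood had negative differences, but of these lists only the blood markers, with 2 measured, had a level without overlap. Stroma and vessel markers were negative in 22 of 23, with a median of -0.58, and their level was 1.19, 1.05, 1.94 and 1.03 at 24 h, against 1.83, 2.38 and 1.73 at 6 h. Animal 13 had the stromal level of a 6 h animal, and without it the median was -0.80. Plvap, a protein of fenestrated vessels, had signals of 208, 20.8, 133 and 231 at 24 h, against 462, 406 and 431 at 6 h (difference -1.76, SE 0.69, adjusted p = 0.584). Leukocyte markers were negative in 19 of 24, with a median of -0.59 and a level from -0.63 to -0.30 at 24 h, against -0.71 to 1.49 at 6 h. The high value was animal 9, and without that animal the median was 0.16. The neutrophil proteins S100a8 and S100a9 differed by -1.88 and -1.57, without overlap (adjusted p 0.657 and 0.647). Of the blood cell markers 2 were measured, with a level from -1.29 to -0.81 at 24 h, against -0.12 to 0.19 at 6 h. Their median difference was -0.99. With no filter, 4 of the 8 blood markers on the array were positive and the median was -0.08. Hbb, beta globin, had 431, 287, 421 and 444 at 24 h, against 1307, 899 and 930 at 6 h (difference -1.36, adjusted p = 0.439). Cartilage, bone and muscle markers were negative in 7 of 7 (median -0.40), and Ibsp, a bone matrix protein, ranged from 6833 to 26802 at 24 h and from 22378 to 28300 at 6 h. With no filter, 4 of the 16 such markers on the array were positive and the median was -0.39. The olfactory markers had 7 positive of 10 and a median of 0.11, and 1 of them, Cyp2a3, is also in the list of xenobiotic enzymes. The part of these cell types in the results on epithelial, interferon and signalling genes was not tested.

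The remaining lists held no called gene. Beside their separated members stand the shares over all genes, 4.54% higher and 2.91% lower without overlap. Tight and adherens junction genes were positive in 12 of 19 (median 0.21). Cgn, which encodes cingulin of tight junctions, was the 1 separated gene of the 19, close to the share of all genes. It had signals of 825, 699, 673 and 1064 at 24 h, against 471, 370 and 635 at 6 h (difference 0.72, adjusted p = 0.53). Repair keratins and squamous genes had 9 positive of 15 (median 0.40), but the sign of the median was not stable. It was -0.16 without animal 9, and with no filter it was -0.13, with 10 of 24 positive. The separated members were S100a8 and S100a9, 2 of 15 and both lower at 24 h. Krt18, a keratin of simple epithelia, overlapped, at 15836, 9332, 19050 and 16818 at 24 h, against 12704, 5585 and 7885 at 6 h (difference 0.84, adjusted p = 0.647). Ribosome biogenesis genes were positive in 20 of 33 (median 0.04), with 1 of the 33 higher and 3 lower without overlap. Ribosomal protein genes were positive in 22 of 24 (median 0.19, 0 separated). Nasal gland proteins were positive in 5 of 7 (median 0.44, 0 separated), and with no filter in 8 of 13 (median 0.08). Inflammatory cytokines and NF-kB targets were positive in 4 of 12 (median -0.06), with 1 of the 12, Il1b, lower without overlap.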

How the data were processed

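Nasal epithelium of 23 rats was profiled on 1-colour Affymetrix arrays. The deposited values are intensity, a linear signal per probe set, and per the submitters' processing notes GCOS 1.0 was used, with settings not given in the sources used here. Every array has the same mean, 500, once 2% of its values are dropped from either end, so values were not scaled again. Signals were taken as log2(signal + 16). Of 31099 probe sets, 57 controls were left out, and 16481 exceeded their array's median on at least 3 of the 7 arrays. limma 3.58.1 (R 4.3.3) fitted 1 mean per group to the 15 exposed arrays, two-sided, with Benjamini-Hochberg adjustment over all kept probe sets. A gene was represented by its kept 1-symbol probe set with the highest mean (9992 genes). Gene symbols came from the platform annotation (20832 probe sets with 1 symbol, 436 with several, 9831 with none). Named genes were those past the threshold, else up to 15 per direction by smallest p without overlap, up to 3 per list by p, and a preset set. Members and the 35 lists were chosen with earlier results of these data known. The number of arrays limits the precision. The procedure was also run on simulated data with independent noise of equal size on every array. Such data cannot show how RNA quality or single animals affect the calls. Alternatives changed the pseudocount, normalization, filter, fitted arrays, array weights, RNA integrity number and each animal. No sequences are shown, as none were used here.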

Additional observations from a re-analysis of the deposited data

Results flagged for a closer look

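Of 174 sets of 4 values at 24 h, 14 (8.05%) held 1 animal whose gap to its nearest neighbour took an unusually large share of the whole range by Dixon's test, where chance gives about 1 in 20. Animal 14 stood high for Tk1 (log2 value 11.12, others 10.13 to 10.23, share 0.894), Cdk4 (11.67, others 10.90 to 10.94, share 0.94) and Hes1 (11.45, others 10.88 to 10.93, share 0.924). Animal 12 stood high for Muc5ac (11.13, others 8.83 to 9.19, share 0.845) and for the beta-actin 3' to 5' log2 ratio (7.64, others 5.82 to 6.04, share 0.88). It stood low for Mup5 (12.35, others 15.59 to 16.25, share 0.832), Cldn3 (9.61, others 10.64 to 10.79, share 0.869), Nr1d2 (10.41, others 10.92 to 10.98, share 0.884), Hbb (8.24, others 8.77 to 8.85, share 0.879) and the blood cell list level (-1.29, others -0.86 to -0.81, share 0.892). Animal 13 stood high for Cldn12 (11.10, others 10.31 to 10.41, share 0.867) and the immediate-early list level (-0.11, others -0.40 to -0.37, share 0.898), and low for Ccl20 (4.36, others 7.79 to 8.43, share 0.843). Animal 11 stood low for Slc7a11 (5.05, others 7.53 to 7.87, share 0.88).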

How the results depend on the processing

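Counts of probe sets past the threshold moved most. Against 3 higher and 0 lower, there were 0 calls with no filter on low values (1753 at an unadjusted p under 0.05), with only the 7 arrays fitted (1015) and without animals 6 and 14 (778). A filter at the 75th percentile gave 6 higher and 1 lower, 21 arrays without air animals 18 and 22 gave 12 and 1, array weights 70 and 11, the RNA integrity number as a covariate 24 and 10, and leaving out numbers under 3 gave 47 and 5. Arrays with such a number and no covariate, chosen after seeing the data, gave 5 and 0. Leaving out each animal in turn gave 0 to 50 higher and 0 to 7 lower. The cause was not tested. Of 3044 values of named genes under alternatives, 2913 kept their direction and side of the threshold, 86 passed it newly, 25 no longer passed and 20 changed sign. All 25 losses were of Kifc1, Cldn22 or Fam81a, since the other named genes had no call to lose. For those others, staying on their side of the threshold was close to fixed in advance. The 2913 is therefore no measure of how stable the 3 calls were. Of 805 list medians, 772 moved by less than the spread between animals. Of the values that changed sign, Mup5 had a difference of 1.67 over all animals (adjusted p = 0.827) and -0.16 without animal 9. Leaving out each animal in turn gave -0.62 to 0.40 for Cdkn1a, -0.17 to 0.50 for Krt14, -0.02 to 0.26 for Atf3, -0.79 to 0.01 for Krt17 and -0.16 to 2.97 for Mup5. Cdkn1a was -0.01 with 64 added, -0.28 with array weights, -0.62 with the covariate and on arrays with a number, and -0.17 without animals 6 and 14. Krt14 was -0.01 with the covariate, -0.17 without animals 6 and 14, and -0.13 on arrays with a number. Atf3 was -0.02 without animals 6 and 14, Mup5 -0.16 on arrays with a number, and Dst 0.07 as the mean of its probe sets. No paired analysis was possible because the animals of both groups share no numbers. Signals near the bottom of the range have no reliable fold.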
